A study of Homo sapiens with 22 samples.

Results

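The genes described here encode the enzymes that write, copy and oxidise DNA methylation and the alternative catalytic subunits of the histone methyltransferase complex PRC2. They were chosen by symbol, as DNMT1, DNMT3A, DNMT3B, UHRF1, TET1, TET2, TET3, EZH1 and EZH2, which is 9 of the 35237 rows of the count table. The rule names symbols and uses no measured value, though earlier results of these data were known when the genes were chosen. All 9 passed the filter on low counts in every comparison. RNA-seq counts were available for 22 libraries of 2 established human neuroblastoma lines. SK-N-AS cells were kept untreated in DMEM with 10% fetal bovine serum (FBS, n = 4). The group S1D4 received 5 µM PP121, an inhibitor of tyrosine and phosphoinositide kinases, for 4 days in DMEM with 1% FBS (n = 4). S1D4 cells were then moved to Neurobasal medium with the B27 supplement, 5 µM PP121 and 100 nM bufalin, a cardiac glycoside that blocks the sodium pump, for 4 days in the group S2D4 (n = 4) and for 30 days in the group S2D30 (n = 4). GIMEN cells were kept without drug in RPMI with 10% FBS (n = 3) or held for 30 days in RPMI with 1% FBS, 2.5 µM PP121 and 10 nM bufalin (D30, n = 3). Drug, serum, medium and time change together between most groups, so their parts in a difference cannot be told apart. The labels number the replicates without saying that they were separate cultures, so p-values may measure only technical spread.

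DNMT1 copies CpG methylation onto the new DNA strand after replication, and UHRF1 brings it there by binding half-methylated CpG sites. DNMT3A and DNMT3B place methyl groups on unmethylated sites. The TET dioxygenases oxidise methylcytosine, which starts its removal. EZH2 and EZH1 are alternative catalytic subunits of PRC2, which methylates lysine 27 of histone H3. EZH2 is known as the form of dividing and embryonic cells and EZH1 as the form that prevails in many resting, differentiated cells, and high EZH2 is a known feature of aggressive neuroblastoma.

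Total counts per library ran from 16456484 to 37506800. Levels are CPM, counts scaled to a common library size with 1 scaling of all 22 libraries. The labels call both lines mesenchymal. Against 10 mesenchymal and 9 adrenergic markers, untreated GIMEN had a mesenchymal sum of 37948 to 39534 CPM, of which FN1 alone gave 30286 to 32195 CPM while NOTCH2 was at most 0.0491 CPM. Its adrenergic sum was 452 to 475 CPM, mostly HAND2 (351 to 369 CPM), with PHOX2A and TH at 0. Untreated SK-N-AS matched the label only in part, with a mesenchymal sum of 973 to 1498 CPM, an adrenergic sum of 1651 to 1879 CPM and TH between 0.143 and 0.568 CPM. The sum over 9 blood cell markers in SK-N-AS was 160 to 208 CPM untreated (PTPRC alone 158 to 207 CPM) and 3.28 to 6.17 CPM in S2D30 (PTPRC 0.526 to 1.36 CPM), with CD3E and HBB at 0. CD14 of this list went the other way, from between 0.794 and 1.84 CPM untreated to between 2.10 and 4.47 CPM in S2D30. The part of these markers in the results was not tested. For the genes described here, untreated SK-N-AS replicate 4 stood apart from its group for DNMT3B and TET3, and S2D4 replicate 4 for DNMT3A, DNMT3B and TET2. Results that rest on them are given with and without them or, for DNMT3B, as a range over fits that include such fits.

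The sequence just upstream of a start site can hold cell cycle and CpG island features of such genes, and 4 of these windows are shown. UHRF1 was taken because it fell most in GIMEN, and EZH1 and EZH2 because they moved apart. DNMT3B was taken because its window, at a start site inside the gene, holds the fewest CpG. Each window is the 250 bases before a RefSeq start site on GRCh38.p14, written 5′ to 3′ on the gene's strand. Capitals mark E2F-type letters (TTTCCCGC, TTTCGCGC, TTTGCCGC or TTTGGCGC) and the CCAAT box, searched on both strands. No marked matches overlapped. The windows are chr19:4909251-4909500 (plus strand) for UHRF1, which has further start sites downstream of this one, chr20:32779602-32779851 (plus strand) for DNMT3B, chr17:42745041-42745290 (minus strand) for EZH1 and chr7:148884292-148884541 (minus strand) for EZH2.
UHRF1: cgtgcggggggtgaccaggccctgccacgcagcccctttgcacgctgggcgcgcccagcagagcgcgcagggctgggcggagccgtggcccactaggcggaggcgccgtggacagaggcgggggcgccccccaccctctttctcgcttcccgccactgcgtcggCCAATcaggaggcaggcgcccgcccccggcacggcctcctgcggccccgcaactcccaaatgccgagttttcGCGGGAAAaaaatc
DNMT3B: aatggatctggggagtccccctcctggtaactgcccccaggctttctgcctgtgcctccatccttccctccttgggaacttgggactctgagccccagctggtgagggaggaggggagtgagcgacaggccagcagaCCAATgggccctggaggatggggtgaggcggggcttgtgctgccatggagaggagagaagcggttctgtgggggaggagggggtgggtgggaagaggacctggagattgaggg
EZH1: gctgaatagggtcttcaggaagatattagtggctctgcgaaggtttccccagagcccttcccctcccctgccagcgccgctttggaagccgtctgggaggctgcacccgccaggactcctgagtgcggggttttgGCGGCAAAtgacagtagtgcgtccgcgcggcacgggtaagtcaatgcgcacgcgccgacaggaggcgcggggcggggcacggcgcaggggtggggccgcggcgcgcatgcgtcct
EZH2: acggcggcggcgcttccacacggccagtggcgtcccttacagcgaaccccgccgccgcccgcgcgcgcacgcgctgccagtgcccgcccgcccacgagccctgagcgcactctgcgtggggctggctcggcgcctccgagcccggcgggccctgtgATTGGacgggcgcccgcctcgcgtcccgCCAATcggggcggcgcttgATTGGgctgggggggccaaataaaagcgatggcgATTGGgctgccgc
An E2F-type match lay 14 bases before the UHRF1 start site and 115 bases before that of EZH1, and 2.788% of 35116 promoter windows of this length held one. A second UHRF1 window held another such match at 160 bases, and no window of the other 7 genes held one. The EZH2 window shown held 4 CCAAT boxes, at 94, 66, 47 and 13 bases before the start, while 32.008% of all windows held at least 1. A second EZH2 window held none, and windows of UHRF1, DNMT3B, TET1 and TET3 held CCAAT boxes too. The element TTTGAA or TTCGAA (the CHR of cell cycle promoters) was found 2 times in a TET2 window and in no window of the other members, against 14.335% of all windows. The windows shown held 28 CpG for UHRF1, 26 for EZH1 and 38 for EZH2, against a median of 11 over all windows. The DNMT3B window held 3, but its start site lies inside the gene, which begins at base 32762385 in GENCODE v29. No window at that first start was searched, so the CpG content there is not given. The UHRF1 window too lies inside the gene as annotated there, which begins at base 4903080. These matches describe letters only, and no window reached past its start site, so matches further on would be missed. Of the genes with an E2F-type match here, UHRF1 fell and EZH1 rose in treated cells of both lines. The part of these sites in either change was not tested.

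EZH1 was the 1 gene of the 9 that rose against untreated cells in each treated group of both lines, and DNMT1, UHRF1, DNMT3B, TET1 and EZH2 fell in each. After S1D4, 1 gene was higher and 5 lower, where 17.6% and 22.4% of the 15810 genes tested were called higher and lower. After S2D4 it was 1 higher and 6 lower, against 30.9% and 32.2% of all genes. After S2D30 it was 1 higher and 7 lower, against 33.8% and 36.5%. In GIMEN D30 it was 1 higher and 6 lower, against 35.5% and 36% of 13517 genes. The median log2 fold change of the 9 genes was -0.73 for the S1D4 cells, -0.50 for S2D4, -1.58 for S2D30 and -1.14 in GIMEN D30, beside medians of -0.01, -0.02, -0.03 and 0.02 over all genes. The 3 SK-N-AS comparisons share their untreated libraries. A call is an adjusted p under 0.05 in edgeR's quasi-likelihood test with Benjamini-Hochberg adjustment over all genes of the fit.

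**Figure D1:**
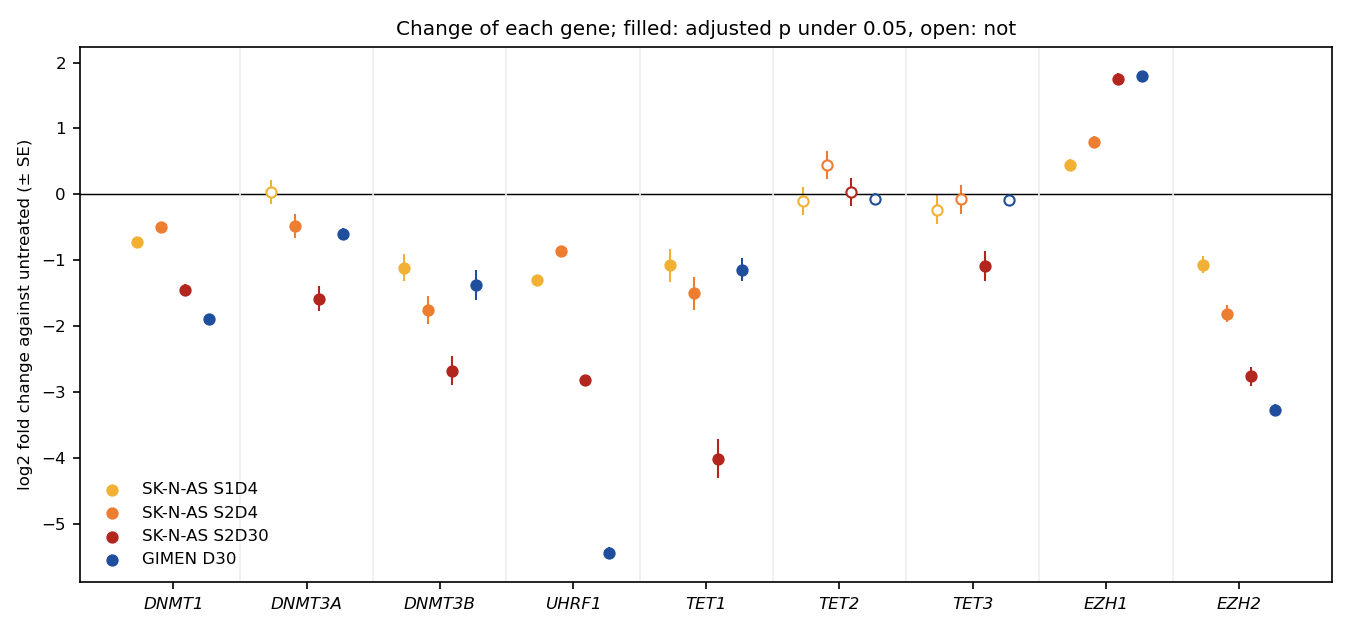
Log2 fold change against untreated cells of the same line (vertical axis, ± SE from the edgeR fit) for each gene (horizontal axis) in SK-N-AS S1D4, S2D4 and S2D30 (4 libraries against 4) and GIMEN D30 (3 against 3). Filled points passed an adjusted p of 0.05 and open points did not. EZH1 lies above 0 in each comparison, from 0.45 to 1.80, and UHRF1 reaches -5.44 in GIMEN D30.

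DNMT1 and UHRF1, which copy methylation, fell in every treated group. DNMT1 stood at 299, 314, 283 and 307 CPM in the untreated SK-N-AS replicates, 198, 205, 171 and 167 CPM in S1D4, 216, 209, 238 and 212 CPM in S2D4 and 115, 107, 108 and 123 CPM in S2D30. The ranges of these groups did not overlap. The log2 fold change was -0.73 ± 0.08 (SE, adjusted p = 5.05e-06) in S1D4, -0.50 ± 0.08 (6.24e-05) in S2D4 and -1.45 ± 0.08 (1.67e-10) in S2D30. In bulk RNA, fewer cells that express a gene and less of its RNA per cell cannot be told apart. UHRF1 stood at 148, 155, 169 and 178 CPM untreated, at 70.4, 70.5, 66.0 and 61.8 CPM in S1D4, at 87.3, 92.8, 93.9 and 94.4 CPM in S2D4 and at 22.6, 26.4, 21.9 and 23.3 CPM in S2D30. It too showed 4 separate ranges, with the higher level at S2D4 than at S1D4. Its log2 fold changes were -1.30 ± 0.08, -0.86 ± 0.08 and -2.82 ± 0.08, the last a 7.08-fold fall (adjusted p = 9.80e-14). In GIMEN, DNMT1 went from 303, 296 and 319 CPM to 84.5, 86.7 and 81.7 CPM (-1.89 ± 0.06, 3.20e-10). UHRF1 went from 394, 400 and 413 CPM to 9.45, 10.3 and 8.54 CPM, a 43.4-fold fall (-5.44 ± 0.08, adjusted p = 2.69e-12). That was the widest change of any of the 9 genes in either line. In the GENCODE v29 annotation, 18.7% of the 75-base words of UHRF1 exons also occur in AC112777.1, so UHRF1 counts are uncertain to that extent.

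**Figure D2:**
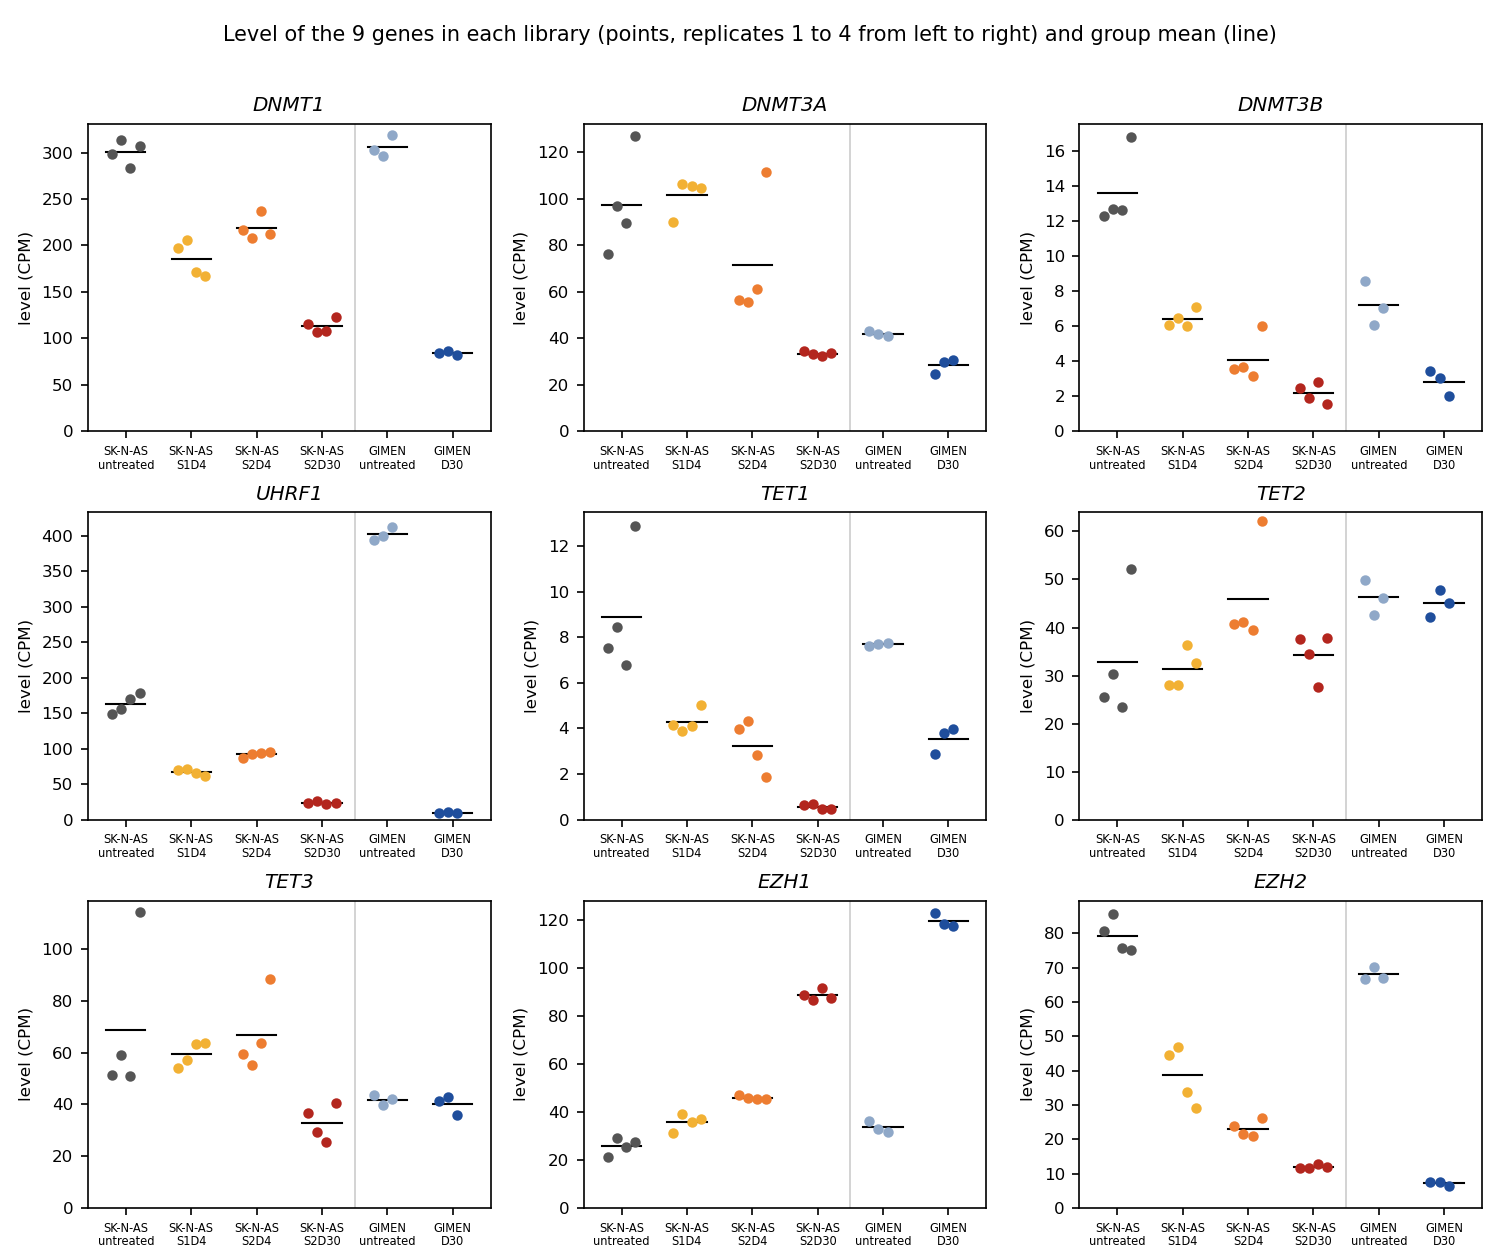
Level in CPM (vertical axes, linear from 0) of each gene in each of the 22 libraries, by group (horizontal axes). Points are libraries, replicates 1 to 4 from left to right, and the line is the group mean. EZH1 climbs from 25.8 to 88.8 CPM in SK-N-AS while EZH2 drops from 79.3 to 12.0 CPM, and untreated replicate 4 is the highest untreated library for each TET gene.

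The step from S1D4 to S2D4 went against the fall for both maintenance genes. UHRF1 rose by 0.45 ± 0.08 on the log2 scale (adjusted p = 0.000156) and DNMT1 by 0.23 ± 0.08 (0.0263). The DNMT1 rise was not stable: its adjusted p was 0.0856 without S1D4 replicate 3, 0.0943 without S1D4 replicate 4 and 0.0899 without S2D4 replicate 3. It was 0.213 with upper-quartile factors (0.13), 0.116 with a term for replicates 3 and 4 (0.15) and 0.0559 in a fit of the 2 groups alone, and the rise was 0.36 with GC and length trends removed. In this step 4 of the 9 genes were higher (DNMT1, UHRF1, TET2 and EZH1) and 3 lower (DNMT3A, DNMT3B and EZH2), where 28.3% and 26.8% of all genes were. The count of higher genes was 2 without S1D4 replicate 4, and that of lower genes 1 without S2D4 replicate 3. From S2D4 to S2D30, EZH1 was higher and 7 genes were lower, against 24.4% and 26.9% of all genes. In that step UHRF1 fell by 1.97 and DNMT1 by 0.95 on the log2 scale.

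Of the genes for new methylation, DNMT3B fell from the first stage on and DNMT3A only later. DNMT3B stood at 12.3, 12.7, 12.6 and 16.8 CPM in the untreated replicates, 6.07, 6.45, 5.99 and 7.05 CPM in S1D4, 3.54, 3.64, 3.15 and 6.0 CPM in S2D4 and 2.46, 1.89, 2.81 and 1.52 CPM in S2D30. Each treated range lay below the untreated range. The changes were -1.11 ± 0.20 (adjusted p = 0.000391), -1.76 ± 0.21 (1.67e-06) and -2.68 ± 0.22 (1.22e-08). Over all alternatives, each library left out in turn among them, they ranged from -1.21 to -0.99, from -2.01 to -1.64 and from -2.83 to -2.54. The fall from S1D4 to S2D4, by 0.65, had an adjusted p of 0.0149, and of 0.0519 without S2D4 replicate 3. Over the alternatives this step ranged from -0.90 to -0.50. DNMT3A stood at 76.1, 97, 89.5 and 127 CPM untreated and at 90.1, 106, 105 and 105 CPM in S1D4, with overlapping ranges and a difference of 0.04 ± 0.19 (adjusted p = 0.897). In S2D4 it was 56.5, 55.7 and 61.3 CPM in replicates 1 to 3 but 112 CPM in replicate 4, inside the untreated range. The fall in S2D4, -0.48 ± 0.19, had an adjusted p of 0.0336, near the threshold. The call was lost, with the fall still between -0.48 and -0.32, when any of 5 libraries was left out. The adjusted p was 0.0576 without untreated replicate 2 (-0.48), 0.136 without untreated replicate 4 (-0.32) and 0.106, 0.109 and 0.0933 without S2D4 replicate 1, 2 or 3 (-0.38, -0.38 and -0.42), while without S2D4 replicate 4 the change was -0.78. It was also 0.0525 with no filter (-0.45), 0.127 with a term for replicates 3 and 4 and 0.113 in a fit of these groups alone. The S1D4 to S2D4 step of DNMT3A, -0.52 ± 0.19, behaved alike: the adjusted p was 0.0269 with all libraries, 0.0573, 0.0554 and 0.0543 without S1D4 replicate 2, 3 or 4, and 0.0881, 0.0897 and 0.0777 without S2D4 replicate 1, 2 or 3. The step was -0.82 without S2D4 replicate 4, and its adjusted p was 0.0956 with a term for replicates 3 and 4 and 0.0601 in a fit of these groups alone.

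At S2D30 the spread in DNMT3A was gone, with 34.4, 33.0, 32.2 and 33.6 CPM in the replicates, below every library of the earlier groups. The fall against untreated cells was -1.58 ± 0.19 (adjusted p = 1.44e-06). In GIMEN, DNMT3A went from 43.1, 41.9 and 41.0 CPM to 24.8, 29.6 and 30.6 CPM (-0.59 ± 0.09, 8.77e-05). DNMT3B went from 8.56, 6.04 and 7.01 CPM to 3.41, 3.05 and 1.99 CPM (-1.38 ± 0.22, 0.000173). Neither pair of ranges overlapped.

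Among the TET genes, TET1 fell in every treated group, TET3 fell in S2D30 and TET2 did not pass the test against untreated cells in any group. TET1 stood at 7.54, 8.48, 6.78 and 12.9 CPM untreated, 4.14, 3.91, 4.09 and 5.01 CPM in S1D4, 3.96, 4.34, 2.82 and 1.85 CPM in S2D4 and 0.658, 0.665, 0.453 and 0.478 CPM in S2D30. The S2D30 values rest on 15, 13, 10 and 11 reads, which limits their precision. The log2 fold changes were -1.08 ± 0.25 (adjusted p = 0.00232), -1.5 ± 0.25 (6.67e-05) and -4.01 ± 0.30 (3.48e-09), the last a 16.1-fold fall. Most of it came after day 4 of stage 2, where TET1 fell by 2.51 ± 0.30. The S1D4 to S2D4 difference, -0.42 ± 0.25, missed the threshold (0.169; 0.0132 with GC and length trends removed). In GIMEN TET1 went from 7.63, 7.71 and 7.74 CPM to 2.88, 3.81 and 3.98 CPM (-1.14 ± 0.17, 9.35e-05).

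TET3 stood at 51.4, 58.9, 51.0 and 114 CPM untreated, with overlapping ranges in S1D4 (53.9 to 63.7 CPM) and S2D4 (55.0 to 88.4 CPM). In S2D30 it was 36.8, 29.2, 25.3 and 40.5 CPM, below every other SK-N-AS library. That fall was -1.09 ± 0.23 (adjusted p = 0.000418), and -0.73 without untreated replicate 4. In GIMEN the TET3 ranges overlapped, at 39.6 to 43.7 CPM untreated and 35.9 to 42.9 CPM in D30 (-0.09 ± 0.08, adjusted p = 0.337), though with GC and length trends removed the difference was -0.34 (0.000919). TET2 stood at 25.5, 30.3, 23.5 and 52.3 CPM untreated, 28, 28.1, 36.4 and 32.6 CPM in S1D4, 40.7, 41.2, 39.5 and 62.1 CPM in S2D4 and 37.6, 34.4, 27.5 and 37.9 CPM in S2D30. The untreated range of TET2, set by replicate 4, spans or overlaps those of all treated groups. The S2D4 difference was 0.45 ± 0.21 (adjusted p = 0.0732). It was 0.77 (0.000815) without untreated replicate 4, 0.57 (0.000876) without that library and S2D4 replicate 4, and 0.64 (0.0195) with a term for replicates 3 and 4. The S2D30 difference of 0.03 ± 0.21 became 0.33 (0.0209) without both replicates 4. The rise of TET2 from S1D4 to S2D4, 0.55 ± 0.21, had an adjusted p of 0.0381. It was 0.0931, 0.0917 and 0.0591 without S1D4 replicate 1, 2 or 4, 0.135 without S2D4 replicate 4, 0.075 with upper-quartile factors and 0.0816 with GC and length trends removed. In GIMEN, TET2 was 49.9, 42.7 and 46.2 CPM untreated and 42.3, 47.9 and 45.1 CPM in D30 (-0.06 ± 0.08, adjusted p = 0.476).

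EZH1 and EZH2 moved in opposite directions in every treated group of both lines. EZH1 stood at 21.2, 29.2, 25.5 and 27.4 CPM in the untreated SK-N-AS replicates, 31.4, 39.2, 35.8 and 36.9 CPM in S1D4, 47.2, 46.0, 45.5 and 45.3 CPM in S2D4 and 88.9, 86.8, 91.9 and 87.5 CPM in S2D30. EZH2 stood at 80.7, 85.5, 75.8 and 75.1 CPM, then 44.6, 46.9, 33.6 and 29.2 CPM, then 23.9, 21.4, 20.9 and 26.3 CPM, and last 11.6, 11.6, 12.8 and 11.9 CPM in the same groups. No 2 of the 4 ranges overlapped for either gene. EZH1 rose by 0.45 ± 0.09 (adjusted p = 0.00103), 0.80 ± 0.09 (1.21e-06) and 1.75 ± 0.09 (6.52e-11) on the log2 scale against untreated cells, and EZH2 changed by -1.07 ± 0.13 (8.27e-06), -1.81 ± 0.13 (5.28e-09) and -2.77 ± 0.14 (2.70e-11). Within S1D4, replicates 3 and 4 had the lower EZH2 and also the lower MKI67, a marker of dividing cells (30.3 and 27.1 CPM, beside 70.7 and 80.8 CPM). In GIMEN, EZH1 went from 36.4, 33.1 and 31.6 CPM to 123, 118 and 118 CPM (1.80 ± 0.07, 9.15e-10). EZH2 went from 66.8, 70.2 and 67.0 CPM to 7.58, 7.49 and 6.42 CPM, a 9.65-fold fall (-3.27 ± 0.08, 5.33e-11).

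The EZH1 to EZH2 ratio of counts within a library, which no scaling of libraries can move, gave the same order. In SK-N-AS the ratio lay between 0.263 and 0.365 without treatment, between 0.704 and 1.27 after S1D4, between 1.72 and 2.18 after S2D4 and between 7.17 and 7.68 after S2D30. In GIMEN it went from 0.472 to 0.544 in untreated cells to 15.8 to 18.3 in D30. Per kilobase of exon (GENCODE v29, since the authors' gene lengths are not given in the sources used here), EZH1 made up 17.7% ± 2.01 (SD, n = 4) of the summed EZH level of untreated SK-N-AS cells, 38.5% ± 6.11 after S1D4, 56.8% ± 2.65 after S2D4 and 83.0% ± 0.408 after S2D30. In GIMEN its share went from 24.6% ± 1.55 to 91.7% ± 0.583 (n = 3). The summed EZH level itself was 31.5 ± 1.86 CPM per kb in SK-N-AS without treatment, lay between 17.5 and 23.8 after S1D4 and between 16.6 and 18.3 after S2D4, and was 23.0 ± 0.663 after S2D30. In GIMEN it was 29.5 ± 0.707 untreated and 28.1 ± 0.806 in D30. These sums depend on the length used. With the longest transcript as the length, GIMEN EZH1 went from 7.29 to 25.9 CPM per kb and EZH2 from 18.7 to 1.97. The GIMEN sum was then the higher in D30.

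The sum of the DNA methyltransferase genes was lower after 30 days in both lines. It was 67.1 ± 4.06 CPM per kb in untreated SK-N-AS, 44.8 ± 3.30 after S1D4, 47.6 ± 3.13 after S2D4 and 24.3 ± 1.36 after S2D30, and 61.6 ± 2.19 and 18.7 ± 0.544 in GIMEN. DNMT1 made up between 75.7% and 91.1% of that sum in each of the 6 group means. For the TET genes, the TET1 share went from 10.9% ± 1.02 in untreated SK-N-AS to 1.20% ± 0.261 in S2D30, and from 11.2% ± 0.672 to 5.69% ± 0.992 in GIMEN. TET3 held the largest TET share in all 6 groups, between 49.2% and 68.0%, but with the longest transcript as the length TET2 came first in S2D30 (3.38 beside 2.89 CPM per kb) and in both GIMEN groups. On the same scale DNMT1 was first of the 9 genes in the 4 SK-N-AS groups, with EZH1 second in S2D30 at 19.1 CPM per kb beside 20.7 for DNMT1. UHRF1 was first in untreated GIMEN (78.2 CPM per kb) and at 1.83 in D30, where EZH1 was first (25.8).

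**Figure D3:**
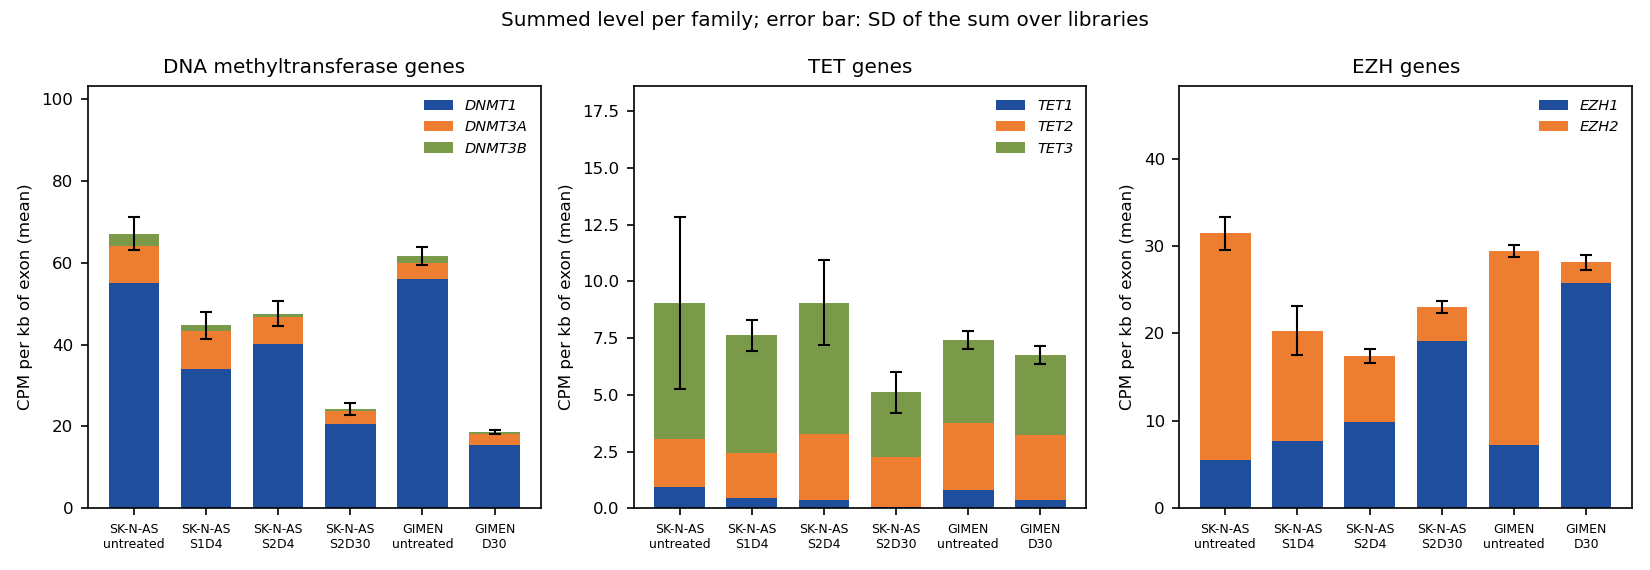
Group mean level per kilobase of exon (vertical axes, CPM per kb) stacked by gene for the DNMT, TET and EZH families in the 6 groups (horizontal axes). Error bars are the SD of the family sum over 4 SK-N-AS or 3 GIMEN libraries. The DNMT sum is lowest in GIMEN D30 (18.7), and the EZH bar changes from mostly EZH2 to mostly EZH1 in both lines.

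Before treatment the lines differed in 6 of the 9 genes, a count near the share of all genes called. UHRF1 and EZH1 were higher in GIMEN and DNMT3A, DNMT3B, TET3 and EZH2 lower, where 34.4% and 39.2% of 15101 genes were higher and lower. UHRF1 was 2.45-fold higher in GIMEN (1.29 ± 0.09, adjusted p = 7.31e-07). DNMT3A was 2.34-fold lower (-1.23 ± 0.16, 7.68e-05), and DNMT3B differed by -0.93 ± 0.17 (0.00085). Over the alternatives, each library left out in turn among them, the DNMT3B difference ranged from -1.06 to -0.52 (GC and length trends removed). EZH1 (0.37 ± 0.12), EZH2 (-0.24 ± 0.08) and TET3 (-0.73 ± 0.27) passed at adjusted p of 0.0196, 0.026 and 0.0328 and were less stable. The adjusted p of EZH1 was 0.0783 without GIMEN replicate 1 and 0.0935 with upper-quartile factors (0.25), and its difference was 0.58 with GC and length trends removed. The adjusted p of EZH2 was 0.113, 0.0698 and 0.105 without GIMEN replicate 1, 2 or 3 and 0.0664 with no filter, and its difference was -0.36 with upper-quartile factors. That of TET3 was 0.0716, 0.0977 and 0.0804 without the same libraries, and its difference was -0.38 without SK-N-AS replicate 4 and -0.46 with GC and length trends removed. The counts were 1 higher and 2 lower without GIMEN replicate 1, and 2 lower without GIMEN replicate 2 or 3. The DNMT1 ranges overlapped (306 ± 11.9 CPM in GIMEN, n = 3, and 301 ± 13.1 CPM in SK-N-AS, n = 4, a difference of 0.01 ± 0.08, adjusted p = 0.896), but DNMT1 was 0.48 higher in GIMEN (0.000165) with GC and length trends removed. TET1 (-0.23 ± 0.22) and TET2 (0.48 ± 0.25) did not pass, while TET2 was 0.79 higher (4.73e-05) without SK-N-AS replicate 4 and both passed with GC and length trends removed (-0.41 and 0.35).

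The 30-day changes were compared between the lines as an interaction, SK-N-AS minus GIMEN, in which doses, serum, medium and the preceding stage also differ. Of the 9 genes, 3 had positive and 4 negative differences, where 24.5% and 25.2% of 16246 genes did. The fall of UHRF1 was larger in GIMEN, by 2.60 ± 0.13 on the log2 scale (adjusted p = 9.18e-11), as were those of EZH2 (0.49 ± 0.12, 0.00332) and DNMT1 (0.43 ± 0.11, 0.00291). The fall of TET1 was larger in SK-N-AS (-2.88 ± 0.33, 2.04e-06), as were those of DNMT3B (-1.32 ± 0.31, 0.00206) and DNMT3A (-1.001 ± 0.17, 0.000149). TET3, which was called lower in SK-N-AS and not in GIMEN, differed by -1.02 ± 0.32 (0.0139), and by -0.68 (0.00408) without untreated SK-N-AS replicate 4. The genes that copy methylation and EZH2 thus fell further in GIMEN, and those for new methylation and TET1 fell further in SK-N-AS. EZH1 rose by nearly the same amount in both lines, with a difference of -0.07 ± 0.12 (adjusted p = 0.698), and TET2 differed by 0.08 ± 0.28 (0.856). Neither value shows that the lines act alike.

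**Figure D4:**
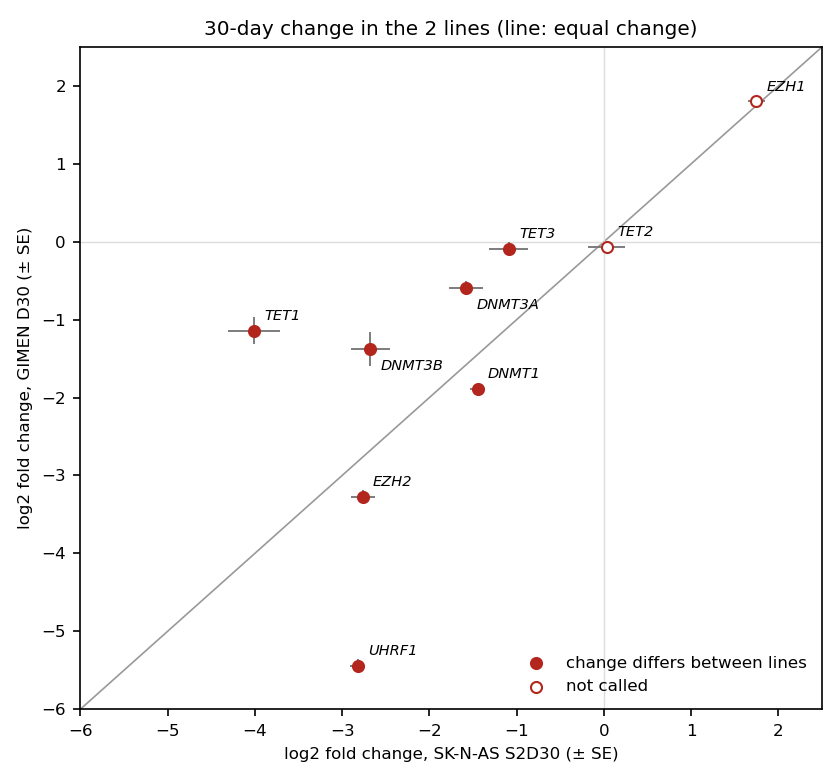
Log2 fold change after 30 days in SK-N-AS S2D30 (horizontal axis, 4 libraries against 4) and GIMEN D30 (vertical axis, 3 against 3), each against untreated cells of its line, with SE bars. The line marks equal change, and filled points passed the test of the difference at an adjusted p of 0.05. UHRF1 lies far below the line, TET1, DNMT3B, DNMT3A and TET3 lie above it, and EZH1 and TET2 lie on it within error.

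Proliferation genes moved with most of the 9 genes. All 22 genes of a proliferation list were lower in S1D4, S2D30 and GIMEN D30, and 21 in S2D4. Of all genes tested, 22.4%, 36.5%, 36% and 32.2% were lower in these comparisons. The summed level of the list lay between 2748 and 3049 CPM without treatment in SK-N-AS, 1027 and 1465 after S1D4, 987 and 1466 after S2D4, and 420 and 427 after S2D30, and went from 3985 to 4045 CPM in untreated GIMEN to 306 to 328 in D30, with no marker at 0 in every library of a group. MKI67 went from 201 ± 56.1 CPM to 52.2 ± 27.5, 20.6 ± 3.46 and at most 0.439 CPM in SK-N-AS, and from 249 ± 16.3 to 2.28 ± 0.467 CPM in GIMEN. The part of proliferation in the results was not tested. In the step from S1D4 to S2D4, where UHRF1 and DNMT1 were higher, 12 of the 22 proliferation genes were lower and 2 higher. Of all genes tested, 26.8% were lower and 28.3% higher in that step. MKI67 was among the lower genes (-1.35 ± 0.33, adjusted p = 0.00256), and the higher ones were MCM6 (0.69 ± 0.10, adjusted p = 3.47e-05) and MCM7 (0.35 ± 0.14, 0.0362) of the replicative helicase. Over the 16 SK-N-AS libraries, which share their group structure, the correlation of log2 CPM with MKI67 was 0.964 for TET1, 0.941 for UHRF1, 0.931 for DNMT1, 0.914 for EZH2, 0.904 for DNMT3A, 0.885 for DNMT3B, 0.798 for TET3, -0.026 for TET2 and -0.964 for EZH1.

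For each gene, the genes of most similar pattern were taken by Pearson's r of log2 CPM over those 16 libraries among 10201 genes of at least 10 CPM. For EZH2 they were PRC1, a spindle midzone protein and not the Polycomb complex of that name (r = 0.998), and KNSTRN (0.995), and for UHRF1 the lamin gene LMNB1 (0.990) and MCM4 of the replicative helicase (0.984). DNMT1 was nearest MCM4 (0.983) and CTPS1 (0.979), DNMT3B nearest SKP2 (0.977) and RAVER2 (0.976), and TET1 nearest KNOP1 (0.982) and SUPT16H (0.980). Over the 6 GIMEN libraries, r for these pairs was between 0.871 for DNMT3B with RAVER2 and 0.9996 for EZH2 with PRC1. EZH1 was nearest CBX7, a Polycomb subunit that reads trimethylated lysine 27 of histone H3 (0.991, and 0.9985 in GIMEN), and WHRN (0.989 in each line). DNMT3A was nearest RET (0.985), the receptor tyrosine kinase, and DCHS1 (0.981), which in GIMEN had r of -0.797. TET2 was nearest CCNT2 (0.909), and TET3 nearest GCN1 (0.959) and YEATS2 (0.955), and these 3 pairs had r between -0.369 and 0.669 in GIMEN.

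The partners of EZH1 and EZH2 held genes called in both directions, as did all genes tested, of which 33.8% were higher and 36.5% lower in S2D30 and 35.5% and 36% in GIMEN D30. Counts near these shares say nothing particular about a list. Of 12 PRC2 partners, 4 were higher and 6 lower in S2D30, and of 11 tested in GIMEN D30, 3 were higher and 6 lower. The list medians were -0.32 and -0.44, beside medians of -0.03 and 0.02 over all genes. The largest rise in both lines was PHF1, a subunit that helps PRC2 bind chromatin, from 61.3 to 82.4 CPM in untreated SK-N-AS to 163.5 to 185.5 in S2D30 (1.29 ± 0.17, adjusted p = 4.88e-06) and by 1.70 ± 0.07 in GIMEN. The largest fall was EPOP, an accessory subunit listed under an older symbol, by 1.96 ± 0.18 and 3.26 ± 0.15. Of 20 genes of the second Polycomb complex, 6 were higher and 6 lower in S2D30, and 10 and 4 in GIMEN D30. CBX7 rose most in both, from 5.81 to 8.26 CPM to 54.4 to 63.3 CPM in SK-N-AS (3.12 ± 0.13, 3.98e-12) and by 3.33 ± 0.09 in GIMEN, and its relative CBX2 fell most (-2.39 ± 0.09 and -1.62 ± 0.07). Both H3K27 demethylase genes were higher in both lines, led by KDM6B (1.67 ± 0.20 and 1.49 ± 0.09).

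Around the DNA methylation genes, with the same shares of all genes as background, 10 maintenance partners gave 1 higher and 6 lower of 9 tested in S2D30 (median -1.63), and 3 higher and 4 lower of 9 in GIMEN D30 (median -0.10). CDCA7, which recruits the remodeller HELLS, fell most in both, from 37.1 to 49.0 CPM to 1.40 to 1.69 CPM in SK-N-AS (-4.83 ± 0.13, adjusted p = 4.37e-14) and by 3.76 ± 0.11 in GIMEN. The largest rise was ZBTB24 in SK-N-AS (0.56 ± 0.12) and CDCA7L in GIMEN (0.65 ± 0.22, adjusted p = 0.0204). The CDCA7L call had an adjusted p of 0.0514 without untreated GIMEN replicate 2 and 0.0779 without replicate 3. Of 8 genes of methyl-CpG readers and their relatives, 5 were higher and 1 lower in S2D30 (median 0.66). In GIMEN D30, 5 were higher and 2 lower (median 0.38). ZBTB38 rose most in SK-N-AS (2.28 ± 0.14) and ZBTB4 in GIMEN (1.15 ± 0.08), while MBD3 fell most in both (-0.60 ± 0.09 and -0.62 ± 0.08). Of 16 genes acting with or after the TET enzymes, 3 were higher and 9 lower of 15 tested in S2D30 (median -0.70), and 4 and 7 of 13 in GIMEN D30 (median -0.17). GADD45B rose most in SK-N-AS, from 0.336 to 1.71 CPM to 28.2 to 31.0 CPM, but fell in GIMEN, from 7.32 to 8.65 CPM to 2.35 to 3.08 CPM (-1.51 ± 0.18, adjusted p = 1.39e-05). OGT, which binds TET proteins, rose most in GIMEN (1.26 ± 0.06). The glycosylase gene NEIL3 fell most in both, from 12.1 to 17.1 CPM to at most 0.102 CPM in SK-N-AS and from 18.8 to 20.6 CPM to at most 0.529 CPM in GIMEN.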

How the data were processed

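Total RNA of SK-N-AS and GIMEN cells was sequenced paired-end, as 22 libraries, on an Illumina HiSeq X, per the labels' protocols. The authors deposited raw counts per gene symbol, and the aligner, counter, genome build, annotation and use of strand are not given in the sources used here. Without the counting rules it is unknown how reads shared between genes were treated. The values were whole numbers, and no 2 replicates agreed within sampling noise (chi-square over its degrees of freedom 2.73 or more).

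The genes and the pathway lists were chosen with earlier results of these data known, so the lists describe and do not support. Counts were tested in R 4.3.3 with edgeR 4.0.16: filterByExpr (minimum count 10, minimum total 15), trimmed mean of M-values (TMM) scaling and quasi-likelihood F-tests, with Benjamini-Hochberg adjustment over all genes and a threshold of 0.05. The fits held the 16 SK-N-AS libraries, the 6 GIMEN libraries, the 7 untreated libraries and, for the interaction, the 14 untreated and 30-day libraries. SE is the absolute log2 fold change over the root of F, and SD is between replicates. Patterns were compared on log2 CPM, adding a prior count of 2. Of each pathway list, the called gene of at least 1 CPM with the largest rise and the largest fall after 30 days was named, and for each of the 9 genes the 2 of most similar pattern; a few results under these rules are not reported here. The list genes (154) were all found in the table, 2 under older symbols. The scripts were tested on simulated data. Exon lengths and shared 75-base words came from GENCODE v29 and promoter windows from RefSeq on GRCh38.p14, which may not match the authors' annotation. Replicate numbers were not taken to pair the libraries. The alternatives were other scalings, filters, DESeq2 1.42.0, a replicate block, a log2 fold change of at least 1, other sets of libraries and leaving out each library in turn. GC and length trends, a term for replicates 3 and 4 of the untreated and S1D4 groups, and leaving out both replicates 4 were added after seeing the data.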

Additional observations from a re-analysis of the deposited data

Results flagged for a closer look

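In 6 of the 36 combinations of gene and SK-N-AS group, 1 library lay far from the other 3, with a gap to its neighbour beyond Dixon's critical value, as a share of the group's range. Chance alone gives about 1 in 20 such groups. For DNMT3A this gap was 0.908 of the range for S1D4 replicate 1, the lowest of its group, and 0.900 for S2D4 replicate 4, the highest. For DNMT3B it was 0.914 for untreated replicate 4 and 0.830 for S2D4 replicate 4, both the highest. It was 0.927 for TET2 in S2D4 replicate 4 and 0.876 for TET3 in untreated replicate 4, again the highest libraries. Thus 5 of the 6 concerned untreated or S2D4 replicate 4, and none concerned DNMT1, UHRF1, TET1, EZH1 or EZH2.

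The 30-day change differed between the lines, SK-N-AS minus GIMEN on the log2 scale and by the interaction test, for 7 of the 9 genes. Of all 16246 genes tested, 24.5% had positive and 25.2% negative differences, so a difference between the lines was common. The difference was 2.60 for UHRF1, 0.49 for EZH2 and 0.43 for DNMT1, all of which fell further in GIMEN. It was -2.88 for TET1, -1.32 for DNMT3B, -1.02 for TET3 and -1.001 for DNMT3A.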

How the results depend on the processing

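The log2 fold changes of the 9 genes were set against the alternatives 1395 times. Of these, 1295 kept their direction and their side of the threshold, 62 lost the call, 12 gained one and 26 changed sign. The tally includes the cutoff at a log2 fold change of at least 1, which recomputes no value and can only remove calls. The causes were not tested. Requiring a log2 fold change of at least 1 left 0 genes higher in S1D4, 0 higher and 3 lower in S2D4, 0 and 0 in the step from S1D4 to S2D4, 0 higher and 4 lower from S2D4 to S2D30, 1 and 1 between the untreated lines, and 1 with a positive difference between the lines. Upper-quartile factors gave 2 higher from S1D4 to S2D4 and 1 higher between the untreated lines. A term for replicates 3 and 4 gave 2 higher in S2D4. Leaving out both replicates 4 gave 2 higher in S2D4 and 2 in S2D30. With GC and length trends removed, 4 genes were higher in untreated GIMEN. Between the untreated lines, the median over all genes was -0.07, and -0.20 with upper-quartile factors and 0.15 with GC and length trends removed, and the last gave 6670 genes higher and 4949 lower in place of 5195 and 5924.

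Changes of sign concerned differences that had not passed the test. With GC and length trends removed, DNMT3A in S1D4 was -0.10 and TET2 in S2D30 -0.071. TET3 in S2D4 was 0.14 with the term for replicates 3 and 4. Without both replicates 4, TET2 in S1D4 was 0.20, TET3 was 0.11 in S1D4 and 0.10 in S2D4, and its step from S1D4 to S2D4 was -0.011. DNMT1 between untreated lines was -0.00069 with DESeq2 size factors, -0.11 with upper-quartile factors and -0.0085 with TMM without the most abundant genes.

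With 1 library left out at a time, DNMT3A in S1D4 ranged from -0.038 to 0.19, TET2 from -0.22 to 0.22 in S1D4 and from -0.10 to 0.35 in S2D30, TET3 from -0.35 to 0.12 in S1D4, from -0.24 to 0.28 in S2D4 and from -0.012 to 0.24 in the step to S2D4, DNMT1 between untreated lines from -0.022 to 0.048, and the TET2 difference between the lines from -0.047 to 0.37. The count of higher genes ranged from 1 to 2 in S2D4, from 2 to 4 in the step from S1D4 to S2D4 and from 1 to 3 between untreated lines. The count of lower genes ranged from 1 to 3 in that step and from 2 to 4 between untreated lines.

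Deviations from the group means correlated above 0.1 in 4 of 27 same-numbered pairs of libraries (-0.10 to 0.29), so the numbers were not taken to pair the samples. Between untreated and S1D4 libraries r was 0.27, 0.27, 0.044 and 0.29 for pairs numbered 1 to 4. Untreated replicate 4 had r of 0.29 with S1D4 replicate 3 but -0.34 and -0.24 with S1D4 replicates 1 and 2. Within S1D4, the chi-square over its degrees of freedom was 6.70 for replicates 1 and 2 and 3.16 for 3 and 4. It was 24.1 to 27.4 between these sets, and the term for replicates 3 and 4 covers that split. With a replicate block, 2 genes were higher in S2D4, with TET2 at 0.47 (adjusted p = 0.0216), and between untreated lines TET1 was 0.0077, TET2 was 0.80 (1.8e-05) and TET3 was -0.37. Of 630 counts over the pathway lists under the alternatives, 600 stayed within 1.5 times the reported count. Depth limits TET1 in S2D30 most, at 10 to 15 reads per library.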

Other observations

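Germline genes, several of which are known to be silenced by promoter methylation in body cells, were mostly too low to test. Of 19 such genes, 9 had enough counts in SK-N-AS and 6 in GIMEN, and since a gene can reach that number through the group where it is high, no count of calls is given for them. TDRD9, which acts in the piRNA pathway, is such a gene, at no more than 0.175 CPM in untreated cells, 0.201 CPM in S1D4 and 0.380 CPM in S2D4 and between 3.56 and 7.52 CPM in S2D30. The cancer-testis gene MAGEB2 fell most in SK-N-AS, from between 2.41 and 8.43 CPM to between 1.49 and 2.35 CPM (-1.42 ± 0.38, adjusted p = 0.00306). In GIMEN, PIWIL2 rose most (1.05 ± 0.35, adjusted p = 0.0202). This call had an adjusted p of 0.0732, 0.0576 and 0.0521 without untreated replicate 1, 2 or 3, 0.0669 and 0.0858 without D30 replicate 2 or 3, and 0.0656 with DESeq2. MAGEA4 fell from between 347 and 357 CPM to between 130 and 143 CPM (-1.39 ± 0.06, 3.43e-09).

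Genes that supply the methyl donor S-adenosylmethionine were called in both directions. Of 11 such genes, 10 were tested in each line, with 3 higher and 6 lower in S2D30 (median -0.56), where 33.8% and 36.5% of all genes were called and their median was -0.03. In GIMEN D30, 1 was higher and 6 lower (median -0.76), against 35.5% and 36% of all genes and a median of 0.02. The largest fall was CBS, which draws homocysteine away from the methionine cycle, in SK-N-AS, from between 164 and 188 CPM to between 24.1 and 31.1 CPM (-2.71 ± 0.19, adjusted p = 1.59e-09). In GIMEN it was SHMT1, of folate metabolism, from between 20.8 and 22.9 CPM to between 3.29 and 4.56 CPM (-2.53 ± 0.13, 1.77e-08).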
